A study of Arabidopsis thaliana with 3 samples.

Results

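The genes described here encode the core histones H4, H3, H2A and H2B and the linker histone H1 of Arabidopsis thaliana, 41 genes chosen by their locus. They were matched to features by the Entrez gene of each feature and the locus tag that RefSeq gives it. In all 27 of the 41 genes had at least 1 feature, with 29 of the 28785 features between them. All 8 H4 genes, all 5 H3.1 genes, all 3 H3.3 genes, 8 of 10 H2B genes and all 3 H1 genes were among the 27. None of the 12 H2A genes (4 canonical, 2 of H2A.X, 3 of H2A.W and 3 of H2A.Z) was paired with a feature in the tables used here, nor were the H2B genes HTB9 and AT3G53650, so these 14 genes were not analysed here; 11206 features have no gene in those tables.

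Total RNA of rosette leaves from plants of the Col-0 accession, aged 2 weeks, was hybridised to 3 one-colour arrays. The plants numbered 41 and 45 (line 41 and line 45, 1 array each) carried 35S::AtMYB23SRDX, in which the 35S promoter, active in most plant tissues, drives the MYB factor AtMYB23 fused to the SRDX repression domain. The plants set against them were wild type (1 array). All groups share the accession, the age and the organ. The labels do not say whether an array held 1 plant or a pool, or how the lines were derived, and the p-values measure only the spread between the arrays of the lines, which may be technical. With a lone wild-type array, anything particular to that array enters the difference of each line alike, and this cannot be told apart from the genotype.

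Histones package DNA into nucleosomes, in which DNA wraps around an octamer of H2A, H2B, H3 and H4, while H1 binds the linker DNA between them. In plants, as in animals, H4, H3.1 and the canonical H2A and H2B are made mainly in S phase for new chromatin, whereas H3.3 and H2A.Z are replacement forms that are also deposited outside replication. H3.1 is therefore associated with dividing cells and H3.3 with transcribed genes in cells of all cycle stages. In a whole leaf, fewer cells of a type and less RNA per cell cannot be told apart.

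As a check of the tissue, 1 of 10 mesophyll markers was paired with a feature. RCA, the activase of Rubisco, had values of 14.13 in line 41, 13.75 in line 45 and 11.90 in wild type. Of 9 shoot meristem markers only CLV3 was paired, with 5.46, 5.45 and 5.79 in the same order, and of 4 pollen markers MGH3 (5.45, 5.52 and 5.57) and AT5G45880 (7.29, 7.34 and 7.73) were. None of 6 flower and 6 root markers was paired. The part of other cell types in the results below was not tested.

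The values are deposited log2 expression values, and features whose mean over the arrays lay under 5.64, the 40th percentile of all feature means (the dim filter), were not tested. Folds are given as "at least" where wild type lay under that level, with wild type raised to it. The arrays are alike in median (5.89 in line 41, 5.91 in line 45 and 5.96 in wild type) but not at the upper end, where the 99th percentile was 10.63, 10.54 and 9.62. Quantile normalization makes the arrays alike over their whole range. With it limma made 2602 higher and 2660 lower calls, beside 2468 and 1229 as deposited, so that the share of higher calls was 49.4% in place of 66.8%, mainly through more lower calls.

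Transcripts of many histone genes were more abundant in the repressor lines than in wild type. Of the 27 genes, 9 lay at least 2-fold above wild type in both lines and 0 at least 2-fold below it, where 5.91% and 1.03% of all 28124 genes and unnamed features did so. Of these 9 genes, 7 were at or above the dim level in wild type; for the others, AT4G40040 and HTB11, the 2-fold difference is as measured and not reached at their bounds. Differences of any size were positive in both lines for 22 genes, negative in both for 3 and of opposite sign for 2, against 32.3% of all features positive and 48.8% negative in both. Among the genes negative in both, HIS1-3 lay under the dim level on all arrays. The median difference of the 27 genes was 0.77 in line 41 and 0.91 in line 45 on the log2 scale, and over all features it was -0.09 and -0.06. Past the dim filter 23 genes were tested, and limma called 11 higher and 0 lower at a Benjamini-Hochberg adjusted p under 0.05, beside 14.6% and 7.27% of the 16905 features tested. Of the 23 genes, 2 lay under the dim level in wild type and passed the filter only through the lines, and 1 of these, AT3G46320, was among the 11. After quantile normalization limma called 12 higher and 2 lower, beside 15.4% and 15.7% of features, and 10 of the 11 were among the 12. AT3G46320 and AT5G10400, which passed the filter only through the lines, were both among the 12, so their calls are not support.

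**Figure D1:**
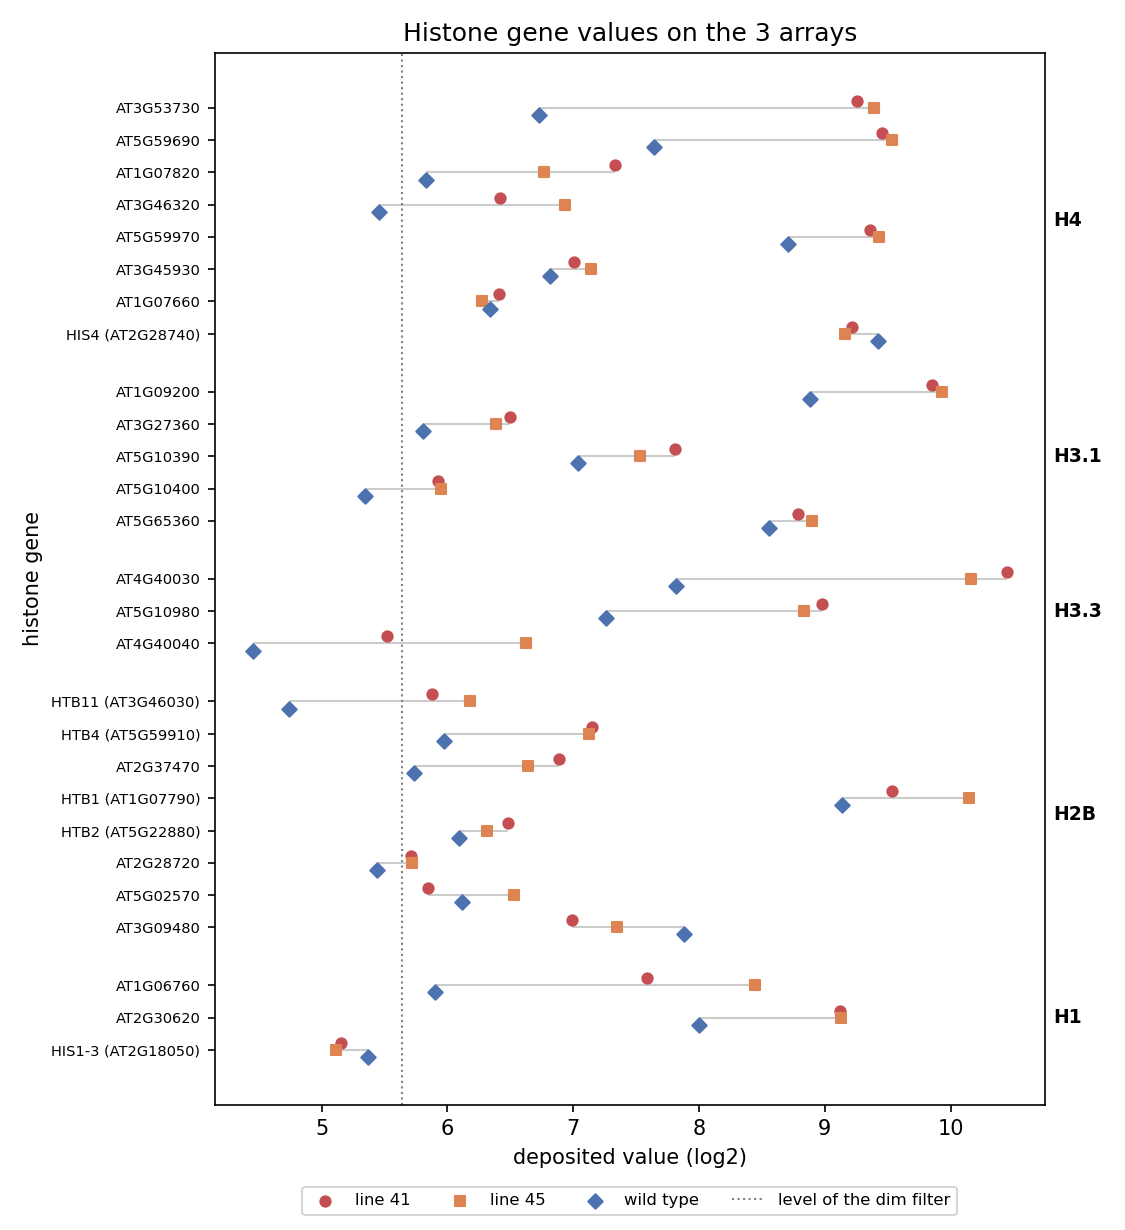
Deposited log2 value (horizontal axis) of each of the 27 histone genes (vertical axis, grouped by class) on the arrays of line 41 (circles), line 45 (squares) and wild type (diamonds), with grey bars for the range and a dotted line at the level of the dim filter, 5.64. Both lines lie to the right of wild type for 22 genes; levels of different genes are not comparable, since they come from different features.

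H4 is the most conserved core histone, and its genes in Arabidopsis encode the same protein. The 8 genes nevertheless ranged from a mean difference of -0.23 to one of 2.59, the largest mean difference of the 27 genes. AT3G53730 had values of 9.25 in line 41 and 9.39 in line 45, against 6.73 in wild type. Both lines thus stood far above wild type and close to each other, and the gene rose 6.01-fold (log2 change 2.59 ± 0.23 SE, 2 lines against 1 array, limma adjusted p = 0.000393). AT5G59690 had 9.45 and 9.54 in the lines against 7.64 in wild type, a rise of 3.61-fold (1.85 ± 0.23, limma adjusted p = 0.00132).

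A further pair of H4 genes rose by a smaller factor. AT1G07820 stood at 7.33 in line 41 and 6.77 in line 45 against 5.83 in wild type, a 2.33-fold rise (1.22 ± 0.27, limma adjusted p = 0.0166). The lines differed here by 0.56, with line 41 the higher. A second, dimmer feature of the same gene gave 5.82 and 5.62 against 4.58, differences of 1.24 and 1.05, and its wild-type value lay under the floor of 4.68. AT3G46320 stood at 6.41 in line 41 and 6.93 in line 45 against 5.46 in wild type, which lies under the dim level. The rise is thus at least 2.05-fold (1.22 ± 0.26 as measured, limma adjusted p = 0.0137). This gene passed the filter only through the lines, so its p-value is not support for the rise.

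The other H4 genes did not pass the test. AT5G59970 had 9.36 and 9.43 in the lines against 8.71 in wild type (log2 change 0.69 ± 0.23, limma adjusted p = 0.0703, in a range over the alternatives of 0.0386 to 0.550). AT3G45930 had 7.01 and 7.14 against 6.81, a difference of 0.26. AT1G07660 had 6.41 in line 41 and 6.27 in line 45, one on each side of its wild-type value of 6.34. HIS4 (AT2G28740) was the only H4 gene below wild type in both lines, with 9.22 and 9.16 against 9.42 (-0.23 ± 0.23, limma adjusted p = 0.526). This gene depended on the scaling, since after quantile normalization it was called lower, with a log2 change of -1.005 (limma adjusted p = 0.00593). Copies of H4, and those within the other core histone classes, are close in sequence and can share signal on an array, so values of single copies are uncertain.

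H3.1, the replication-linked form of H3, showed a narrow set of differences, all above 0 in both lines. AT1G09200 had values of 9.86 in line 41 and 9.94 in line 45 against 8.88 in wild type, and rose 2.02-fold (log2 change 1.02 ± 0.23, limma adjusted p = 0.0182). After quantile normalization its change was 0.40 and it did not pass (limma adjusted p = 0.190). It was the only 1 of the 5 H3.1 genes called on the values as deposited. AT5G10390 had 7.81 and 7.53 against 7.04 (0.63 ± 0.24, limma adjusted p = 0.0963), and AT3G27360 had 6.50 and 6.39 against 5.81 (0.64 ± 0.20, limma adjusted p = 0.0608).

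The remaining H3.1 genes did not pass on the deposited values. AT5G10400 had 5.93 and 5.95 in the lines against 5.34 in wild type (0.59 ± 0.19, limma adjusted p = 0.0572). AT5G65360 had 8.79 and 8.90 against 8.55 (0.29 ± 0.23, limma adjusted p = 0.419). AT3G27360 and AT5G10400 passed after quantile normalization (limma adjusted p = 0.0272 and 0.0215), so which H3.1 genes were called depended on the scaling. AT5G10400 lay under the dim level in wild type and passed the filter only through the lines; its bound is at least 1.23-fold. AT5G65360 turned to -0.14 under it.

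For H3.3, the replacement form of H3, both tested genes rose, and the remaining gene was dim. AT4G40030 had values of 10.45 in line 41 and 10.16 in line 45 against 7.82 in wild type, and rose 5.59-fold (log2 change 2.48 ± 0.25, limma adjusted p = 0.000554). AT5G10980 had 8.98 and 8.84 against 7.26, and rose 3.13-fold (1.65 ± 0.23, limma adjusted p = 0.00221). For both genes the lines were close together and well apart from wild type, and both were called under quantile normalization too, with log2 changes of 2.03 and 1.41. AT4G40040 had 5.52 in line 41 and 6.63 in line 45 against 4.45 in wild type. Its mean lay under the dim filter and its wild-type value under the floor, so it was not tested. As measured it differed from wild type by 1.07 in line 41 and 2.18 in line 45; with wild type raised to the dim level the mean of the lines would differ by 0.43, in place of 1.62.

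Set side by side, the tested H3.3 genes AT4G40030 and AT5G10980 differed from wild type by more than each of the 5 H3.1 genes in the same line. AT5G10980, the lower of the pair, stood at 1.72 in line 41 and 1.58 in line 45, while the H3.1 genes reached at most 0.98 in line 41 and 1.06 in line 45. Its mean change of 1.41 under quantile normalization again lay above the highest H3.1 change of 0.69. The dim H3.3 gene AT4G40040 has no such standing: with values under the floor raised to it, its difference in line 41 was 0.85, below the 0.98 of AT1G09200. With every value raised to the dim level, the medians over the 3 H3.3 genes were 1.72 in line 41 and 1.58 in line 45, and those over the H3.1 genes 0.69 and 0.49. The 2 classes were not compared by a test, since genes of a class are not replicates and each line had 1 array. Signal shared between copies was not tested.

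Over all genes of the classes counted here as replication-linked the picture was less uniform. Each copy was placed by its class alone. The 21 genes of H4, H3.1 and H2B had a median difference of 0.65 in line 41 and 0.60 in line 45, and ranged from -0.89 to 2.52 in line 41. In both lines, 2 of these genes, AT3G53730 and AT5G59690, lay above AT5G10980 of H3.3. In line 41 they stood at 2.52 and 1.81 against 1.72, and in line 45 at 2.66 and 1.89 against 1.58. AT3G53730 of H4 lay above all H3.3 genes in line 45, with a difference of 2.66 against at most 2.34.

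**Figure D2:**
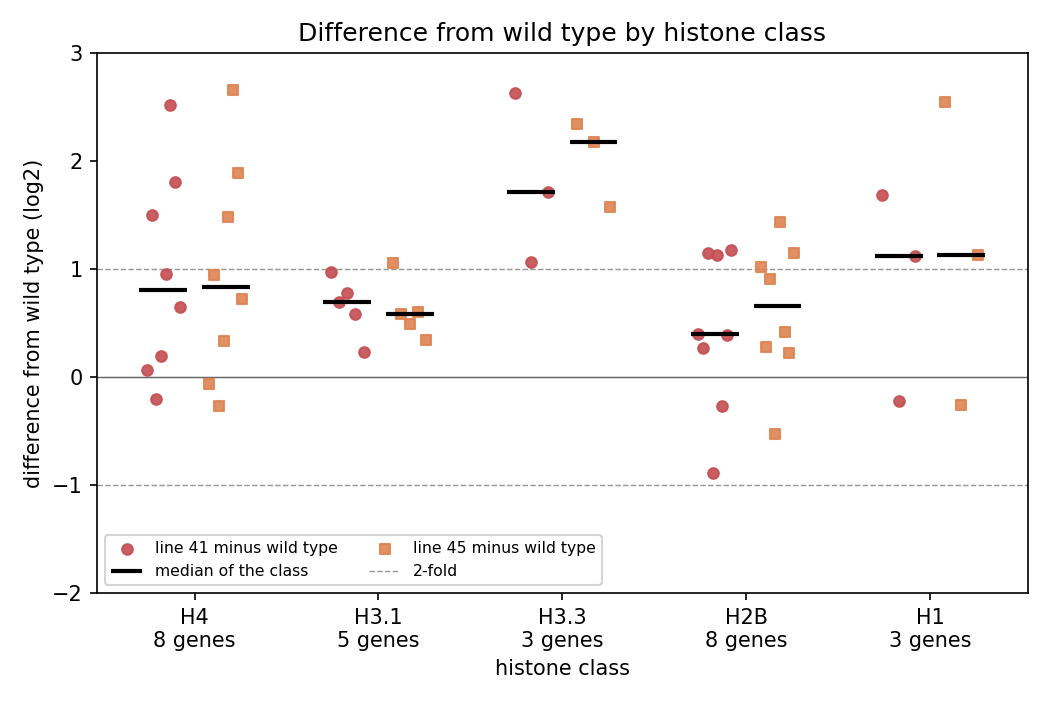
Difference from wild type on the log2 scale (vertical axis) for each gene of the 5 histone classes measured (horizontal axis), with line 41 as circles to the left and line 45 as squares to the right, black bars for class medians and dashed lines at 2-fold. The tested H3.3 genes lie at 1.58 or higher, while H4 and H2B hold tested genes on both sides of 0. In H1 the gene below 0 is HIS1-3, which lay under the dim level on all arrays. The H3.3 gene at 1.07 and 2.18 is AT4G40040, whose wild-type value lay under the floor, which also sets the H3.3 median of 2.18 in line 45 (1.58 with every value raised to the dim level); both lines share 1 wild-type array.

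H2B, which pairs with H2A in the nucleosome, split into genes that rose and genes that did not pass. HTB4 (AT5G59910) had 7.15 in line 41 and 7.12 in line 45 against 5.97 in wild type, and rose 2.24-fold (log2 change 1.17 ± 0.21, limma adjusted p = 0.00702). AT2G37470 had 6.89 and 6.64 against 5.73, and rose 2.04-fold (1.03 ± 0.22, limma adjusted p = 0.0138). HTB11 (AT3G46030) had 5.88 and 6.18 against 4.74, differences of 1.13 and 1.44, but with a mean under the dim level it was not tested, and its bound is at least 1.31-fold.

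HTB1 (AT1G07790) had 9.54 in line 41 and 10.15 in line 45 against 9.13 in wild type, and did not pass (log2 change 0.71 ± 0.30, limma adjusted p = 0.135). After quantile normalization it stood at -0.03. HTB2 (AT5G22880) had 6.48 and 6.31 against 6.09 (0.31 ± 0.21, limma adjusted p = 0.344). AT2G28720, with 5.71 and 5.72 against 5.44, lay under the dim filter.

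The last H2B genes showed no rise. AT5G02570 had 5.85 in line 41 and 6.53 in line 45, on either side of the wild-type value of 6.12 (0.08 ± 0.29, limma adjusted p = 0.886). AT3G09480 had 6.99 and 7.35 in the lines against 7.88 in wild type, the greatest negative difference of the 27 genes (-0.71 ± 0.25, limma adjusted p = 0.0786). It passed after quantile normalization (-0.90, limma adjusted p = 0.0163) and after centring on the 75th percentile (-0.77, limma adjusted p = 0.0491), in a range over the alternatives of 0.0163 to 0.232.

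Among the linker histones, which compact chromatin and bind outside the nucleosome core, 2 of 3 genes rose. AT1G06760 had 7.59 in line 41 and 8.45 in line 45 against 5.90 in wild type, a rise of 4.33-fold (log2 change 2.12 ± 0.34, limma adjusted p = 0.00439). Its lines were 0.86 apart, so the size of the rise is less certain than for the other genes called. AT2G30620 had 9.12 and 9.13 against 7.9997, and rose 2.18-fold (1.13 ± 0.23, limma adjusted p = 0.0113). HIS1-3 (AT2G18050), a linker histone known to be induced by drought, had 5.15 and 5.11 against 5.37 and lay under the dim filter. A second feature of HIS1-3 gave 4.60 and 4.64, both under the floor, against 4.95. All values of both features lay under the dim level, so no size is given for the difference.

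**Figure D3:**
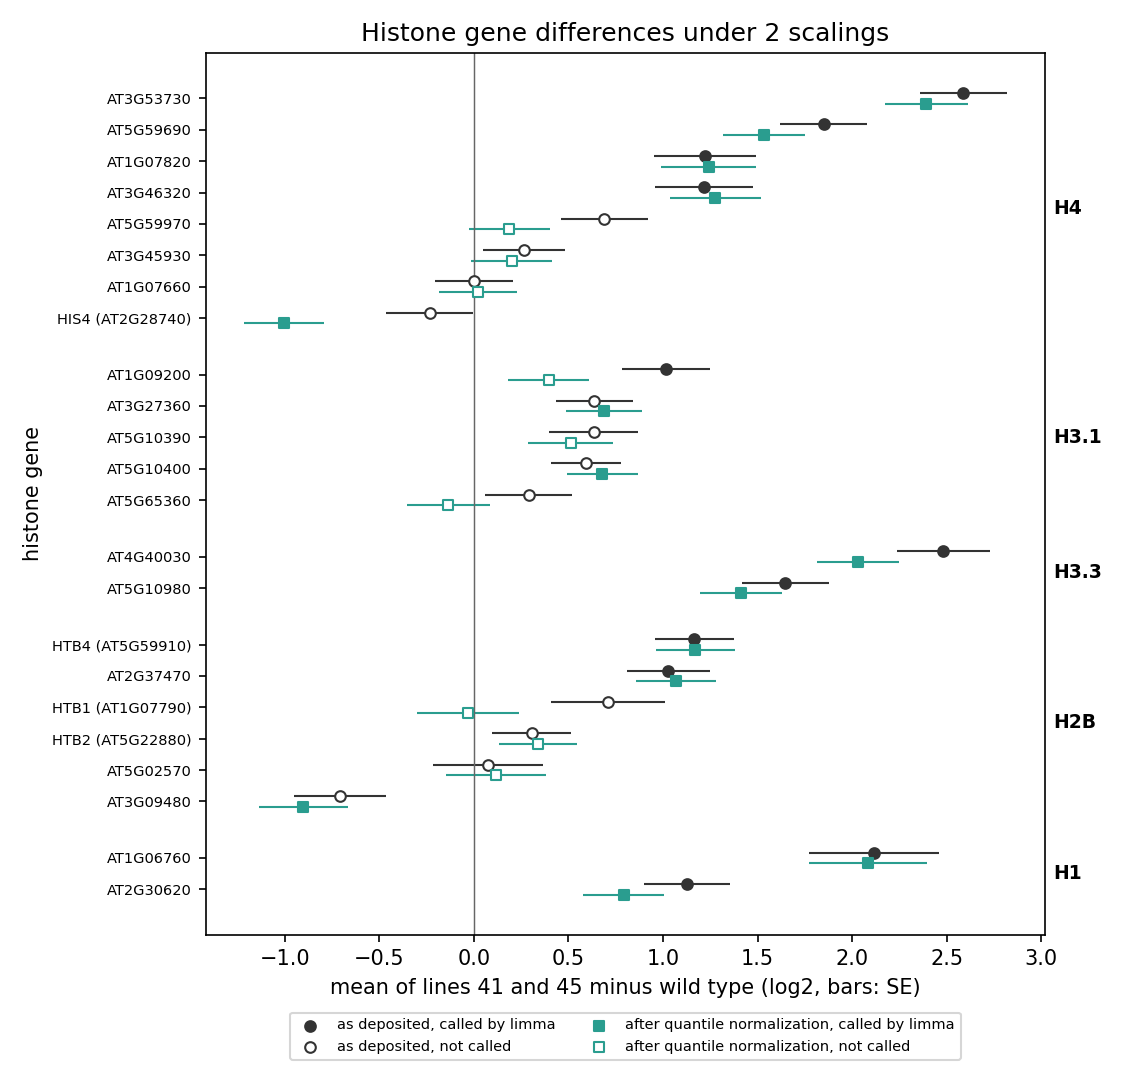
Mean of lines 41 and 45 minus wild type (horizontal axis, log2, bars show the standard error of limma) for the 23 tested histone genes (vertical axis, grouped by class), as deposited (circles) and after quantile normalization (squares), filled where limma called the gene. Of the 11 genes called on the deposited values, 10 were called higher under both; HIS4 moved the other way, with -0.23 as deposited and -1.005 after normalization.

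By the median, the lines differed from each other in these genes about as much as over all features. Of the 27 genes, 1 lay at least 2-fold apart between the lines, beside 0.32% of all features. This was AT4G40040 of H3.3, which was 1.11 lower in line 41 than in line 45 but dim. The median absolute difference between the lines was 0.14 for histone genes and 0.16 for all features. After AT4G40040 the differences furthest from 0 were those of AT1G06760 (-0.86, line 41 minus line 45), AT5G02570 (-0.68) and HTB1 (-0.61). With 1 array a line these differences have no test.

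Several histone genes lie next to each other in the TAIR10.1 annotation, which served here only for neighbourhood and length. With at most 10 protein-coding genes between them there were 10 neighbouring pairs among the 41 genes, and 5 had both members among the 27 genes with a feature. The H3.1 genes AT5G10390 and AT5G10400, with 0 genes between them, had mean differences of 0.63 and 0.59 as measured. With wild type raised to the dim level, that of AT5G10400 was 0.29. The H3.3 genes AT4G40030 and AT4G40040 are also adjacent, and had 2.48 and 1.62 as measured. With wild type raised to the dim level, that of AT4G40040 was 0.43. The 3 pairs of an H2B with an H4 gene gave unequal values as measured: 0.71 for HTB1 and 1.22 for AT1G07820, 1.17 for HTB4 and 0.69 for AT5G59970, and 0.27 for AT2G28720 against -0.23 for HIS4. With wild type raised to the dim level, that of AT2G28720 was 0.07.

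Few genes that act with the histones in S phase were paired with a feature. Of 15 histone chaperone genes, which escort histones to DNA, 2 were paired and 1 was tested. ASF1B (AT5G38110), a chaperone of H3 and H4, had 6.10 in line 41 and 5.87 in line 45 against 6.26 in wild type (log2 change -0.28 ± 0.21, limma adjusted p = 0.395). Its relative SGA2 (AT1G66740), also known as ASF1A, had 4.90 and 4.87 against 5.16, under the dim filter.

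Of 20 genes of DNA replication and S phase, 2 were tested and 0 called. PRL (AT4G02060), which encodes MCM7 of the replicative helicase, had 6.52 and 6.14 against 5.77 (0.56 ± 0.23, limma adjusted p = 0.128). ICU2 (AT5G67100), the catalytic subunit of DNA polymerase alpha, had 5.38 and 5.83 against 6.00 (-0.40 ± 0.23, limma adjusted p = 0.273). Of 11 genes of mitosis, 1 was tested, the Aurora kinase gene AUR1 (AT4G32830), with 6.50 and 6.64 against 6.51 (0.06 ± 0.21, limma adjusted p = 0.871). AUR2 (AT2G25880), with 4.83 and 5.01 against 4.65, lay under the dim filter. None of the 4 genes tested passed in either direction, where 14.6% of the 16905 features tested were called higher and 7.27% lower. So few tested genes say little about these lists, and the genes with no paired feature were not analysed here.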

How the data were processed

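Each array has 1 deposited value a feature, made by the authors and read here as log2 expression, since these lie between 4.04 and 14.8. Neither log base, scanner, background correction nor normalization is given in the sources used here. With another base every fold printed would change. Values were kept as deposited, since the 3 column medians lay within 0.1 of each other. All 3 columns were used, mapped to groups through the sample titles. Of the features 17579 had a gene and 11206 had none. No pair of arrays held the same data, with at most 24 identical features.

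For the limma fit, values under 4.68, their 5th percentile, were raised to it. The differences by line, 2-fold counts, medians and comparison of the lines used values as deposited, except where a bound or the floor is named. Dim features, with a mean under 5.64, the 40th percentile of such means, were left out, and 17271 stayed. The feature with the highest mean stood for a gene, which left 16905. The test of both lines against wild type was that of limma 3.58.1 under R 4.3.3 (lmFit, eBayes with trend, two-sided, Benjamini-Hochberg over all 16905, threshold 0.05), with 1 residual and 6.76 prior degrees of freedom, and a median standard error of 0.221. The script was tested on simulated data. The number of arrays limits the precision. Every member with a feature is named, and other genes are named from lists of chaperones, replication, mitosis and cell types. The members and lists were chosen with earlier results of these data known. Alternatives were other scalings, filters and floors, no trend, every feature on its own, and leaving out a line.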

Additional observations from a re-analysis of the deposited data

How the results depend on the processing

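No paired analysis was possible, since wild type had 1 array and the labels pair it with neither line. Without the dim filter but with the floor kept, limma called 0 features higher and 0 lower, hence 0 histone genes, while 7167 features had an unadjusted p below 0.05; the adjusted p of the 11 histone genes then lay between 0.105 and 0.199, and the cause was not tested. With neither filter nor floor, added after seeing the data, 2503 of 28124 features were called higher and 1894 lower. Of the 27 histone genes tested there, 13 were called higher and 0 lower. After quantile normalization 2660 features were lower. Of the histone genes 2 (HIS4 and AT3G09480) were called lower and 1 lay at least 2-fold below wild type in both lines. With the 75th percentile as centre 1 histone gene was called lower, beside 1728 features. Quantile normalization turned HTB1 to -0.030 and AT5G65360 to -0.14, and the 75th percentile turned AT1G07660 to -0.064; none of these 3 genes passed either way. AT3G27360 and AT5G10400 passed after quantile normalization and centring on the median, and AT5G59970 after centring on the median and with the filter at the 60th percentile. Without line 41 or line 45 there is no residual degree of freedom and so no limma call. The median difference of the histone genes was 0.91 without line 41 and 0.77 without line 45. Of the 11 genes called higher, 10 were called under each alternative that tested them except the one without the dim filter, and AT1G09200 was lost after quantile normalization too. Signal near the dim level limits AT4G40040, HTB11, AT2G28720 and HIS1-3, and also AT3G46320 and AT5G10400, which passed the filter only through the lines.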

Other observations

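Other histone genes and histone deacetylase genes, found by the synonyms in RefSeq after the data were seen, were not called by limma where tested. HTR12 (AT1G01370), the centromeric histone CENH3, had values of 5.76 in line 41 and 5.99 in line 45 against 6.04 in wild type (log2 change -0.17 ± 0.20, limma adjusted p = 0.613). HON4 (AT3G18035), listed under the synonym histone H1, had 8.74 and 8.76 against 8.37 (0.38 ± 0.23, limma adjusted p = 0.278). The histone deacetylase genes HDA15 (AT3G18520) and HDA7 (AT5G35600) had log2 changes of -0.23 (limma adjusted p = 0.505) and -0.33 (limma adjusted p = 0.305). MGH3, a histone H3 gene of male gametes, lay under the dim filter in all arrays, as its values above show.

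The length of the RefSeq gene model was set beside the difference from wild type among the histone genes. Models of H3.3 genes span 1166 to 1797 bp and those of H3.1 genes 723 to 833 bp. AT3G53730 and HTB4, with the longest models among the genes analysed in H4 (1131 bp) and H2B (1286 bp), were among the genes at least 2-fold higher in both lines. There were genes that went the other way. AT5G59690 (745 bp) and HTB11 (748 bp) were also 2-fold higher in both lines as measured. AT3G46320, the shortest H4 model (644 bp), had a mean difference of 1.22 as measured, with wild type under the dim level. HIS1-3 (1109 bp) lay below wild type as measured, but all its values were under the dim level. Spearman's rho of length with the mean log2 difference was 0.50 over the 27 genes and 0.37 over the 21 genes of H4, H3.1 and H2B, and 0.12 over the 16830 genes with a RefSeq entry. These are descriptions across genes that share the arrays and, within a class, close sequence; the relation was noticed after the values were seen.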
